A study of Homo sapiens with 6 samples.

Results

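Heat shock proteins and chaperones were followed in MDA-MB-231 cells, a human breast cancer line of mesenchymal type that lacks hormone receptors, after knockdown of SF3B6. The genes were chosen by symbol among the protein-coding rows of the authors' count table: the HSP70 and HSP110, HSP90 and small heat shock protein families, the DNAJA, DNAJB and DNAJC families of J-domain proteins, the chaperonins HSPD1, HSPE1, TCP1 and the CCT genes, BAG1 to BAG6, the transcription factors HSF1 and HSF2, and the HSP90 co-chaperones AHSA1, CHORDC1 and STIP1. The rule found 89 genes among 39323 rows, and 78 of them had enough reads to be tested. It does not hold every gene of these families. The rule leaves out HSPA5, so no count given here includes that gene. SF3B6, a small protein of the SF3b complex, sits in the U2 snRNP near the branch point of introns during splicing. The siSF3B6 group had 3 libraries of cells transfected with 1 siRNA duplex against SF3B6, and the siNC group had 3 libraries of cells transfected with a non-targeting duplex; both received the same lipid reagent. The time between transfection and harvest is not given in the sources used here. A single duplex, a single line and RNA from whole cultures limit the model.

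Chaperones bind proteins that are unfolded, newly made or at risk of aggregating. HSP70 proteins hold and release their clients in a cycle of ATP hydrolysis. J-domain proteins start that cycle and choose the client, and BAG proteins and HSP110 end it by exchanging the nucleotide. HSP90 matures kinases and receptors with a set of co-chaperones, and chaperonins enclose a client in a barrel. In heat shock, and in many tumour cells at rest, the transcription factor HSF1 drives a large share of these genes from heat shock elements, which are repeats of a short unit in alternating orientation. The endoplasmic reticulum and the mitochondria have chaperones of their own, and those of the endoplasmic reticulum are induced by the unfolded protein response.

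SF3B6 had 22.5, 25.02 and 21.3 CPM in siSF3B6, against 86.4, 80.5 and 102 CPM in siNC, so that siSF3B6 cells held 25.6% of the siNC level (log2 fold change -1.97, adjusted p = 1.43e-07, SE 0.10; edgeR quasi-likelihood test, Benjamini-Hochberg over 16869 genes). The exact two-sided permutation test of these 6 values gave p = 0.1, the smallest that 3 libraries against 3 allow. The libraries held between 28504091 and 38546037 counted reads. Of the markers of the line, VIM had 472 to 547 FPKM (fragments scaled by gene length and library depth), and the hormone receptors ESR1 and PGR at most 0.02 FPKM. A pair of epithelial markers listed as near 0 differed between the groups: EPCAM had 7.48 to 8.15 FPKM in siSF3B6 and 3.51 to 3.92 FPKM in siNC, and CDH1 0.84 to 1.02 FPKM in siSF3B6 and 0.57 to 0.73 FPKM in siNC. The summed level of 9 markers of leukocytes, endothelium, liver and muscle was 0.86 to 2.49 FPKM in siSF3B6 and 1.09 to 1.61 FPKM in siNC, and MYOD1 was at 0 in every library. The siNC libraries were uneven. The share of reads from mitochondrially encoded genes was 10.8%, 10.6% and 11.8% in siSF3B6, against 3.38%, 3.93% and 9.07% in siNC, which places siNC replicate 3 closer to siSF3B6 than to the other siNC libraries. The number of genes with at least 1 read split the libraries in the same way, at 24516, 25566 and 24723 in siSF3B6, against 30930, 32041 and 24579 in siNC. The part of that library in the results was not tested, and values without it, or with it as the only control, stand beside them. No label says that the libraries came from separate cultures, although the series design calls them biological replicates, and the p-values rest on how far these libraries spread, which may be technical.

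Chaperone genes moved in both directions, and about as often as other genes. Of the 78 tested, 17 were higher in siSF3B6 and 14 lower, which is 21.8% and 17.9%. Together that is 39.7%, against 40.8% of all 16869 genes tested (20.8% higher and 20.0% lower) and 45.7% of the 13507 protein-coding ones (23.2% and 22.5%). The median log2 fold change was -0.018 over the chaperone genes and 0.001 over all genes. A change of at least 1.5-fold that passed the test was found for 7 of the 78 (9.0%), against 15.2% of all genes, protein-coding or not. For 43 of the 78 (55.1%) the siSF3B6 and siNC libraries did not overlap, as for 52.1% of all genes and 56.9% of protein-coding genes. The summed level of the 89 genes was 13657, 13738 and 14444 CPM (reads scaled to library depth with TMM factors, the unit of every library value that follows) in siSF3B6, against 15152, 14523 and 14479 CPM in siNC. The groups did not overlap, but the highest siSF3B6 library and the lowest siNC library nearly met. In bulk RNA, fewer cells with a transcript and less transcript per cell cannot be told apart.

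**Figure D1:**
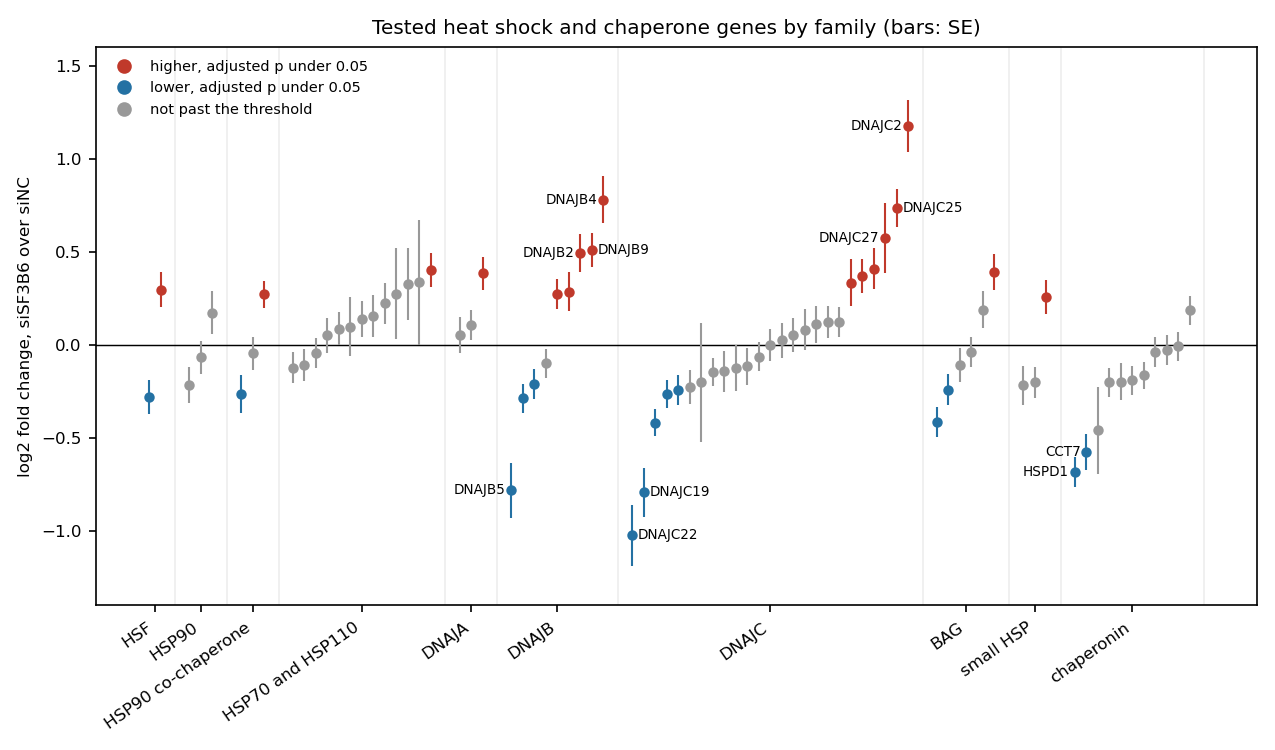
Log2 fold change (siSF3B6 over siNC, vertical axis) of each of the 78 tested genes, placed by family and ordered within it; points are fitted values and bars are standard errors. Red and blue points passed the test upward (17 genes) and downward (14 genes), and grey points did not. The J-domain families DNAJB and DNAJC hold both ends of the range, from DNAJC22 at -1.02 to DNAJC2 at 1.18. The 3 HSP90 genes are grey and lie from -0.22 (HSP90AA1) to 0.17 (HSP90B1).

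The calls differed in firmness. Of the 31 called genes, 17 kept their call without each single library in turn, and 24 kept it with an offset for GC content and transcript length. That offset was fitted to each library's deviation from the mean of all 6 libraries. It therefore also removes any difference between the groups that follows GC content or length. The 8 that kept call and direction under all 21 alternatives were DNAJC2, DNAJC25 and DNAJB2 among those higher, and HSPD1, DNAJC19, DNAJB5, DNAJC9 and DNAJC22 among those lower. Of the 47 tested genes that were not called, 11 passed when 1 library was left out. Without siSF3B6 replicate 3 these were HSPA1A upward, and HSP90AA1, HSPA4, DNAJC8, CCT2, CCT8 and TCP1 downward; without siNC replicate 3 they were HSPA4L, DNAJC15 and CCT5, upward; and without siNC replicate 2 it was HSPB11, downward. Without siNC replicate 3 there were 20 higher and 13 lower, without siNC replicate 2 there were 10 and 10, and without siNC replicate 1 there were 13 and 7. With siNC replicate 3 as the only control, assumed to vary like the siSF3B6 libraries, 3 were higher and 6 lower, where 6.6% and 7.24% of all genes were called. Libraries numbered 1 and 2 alone gave 24 higher and 26 lower (28.6% and 27.0% of all genes). Scaled by library size without TMM factors, 10 were higher and 24 lower (14.6% and 27.0% of all genes); that scaling moved the median of all genes by -0.10 on the log2 scale. CPM values, and log2 fold changes given without a named alternative, rest on TMM factors.

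The heat shock transcription factors moved in opposite directions by small amounts. HSF1, which binds heat shock elements as a trimer, had 119, 112 and 96.4 CPM in siSF3B6, against 136, 138 and 124 CPM in siNC. Its groups did not overlap, and its log2 fold change was -0.28 (adjusted p = 0.0224, SE 0.090). HSF2, which can form mixed trimers with HSF1 and turns over quickly in stressed cells, had 24.4, 25.04 and 28.8 CPM in siSF3B6, against 20.5, 20.6 and 22.6 CPM in siNC, a log2 fold change of 0.29 (adjusted p = 0.0227, SE 0.094). The highest siNC library of HSF2 lay below the lowest siSF3B6 library. The ratio of HSF1 to HSF2 CPM was 4.89, 4.47 and 3.35 in siSF3B6, against 6.63, 6.71 and 5.50 in siNC (exact two-sided permutation p = 0.1, the smallest possible; the pair was chosen after the values were seen). HSF1 has the highest GC content of the tested genes, 64.7%, and with the GC and length offset its log2 fold change was 0.001 (adjusted p = 0.993). HSF2 had a log2 fold change of 0.15 with the offset (adjusted p = 0.0581). The call of HSF1 was also lost without siNC replicate 1 (adjusted p = 0.0809) or siNC replicate 2 (0.0914), and that of HSF2 without siSF3B6 replicate 3 (adjusted p = 0.0621), siNC replicate 1 (0.0954) or siNC replicate 2 (0.0928).

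Among genes outside the set that bear on HSF activity (6 tested), 2 were higher and 0 lower, against 20.8% and 20.0% of all tested genes. The higher ones were EP300 and HSBP1 (log2 fold change 0.32, adjusted p = 0.0053, SE 0.078), while HSF4, SIRT1, AKAP8 and EEF1A1 did not pass. EP300, an acetyltransferase that acts on HSF1, had 43.2, 43.02 and 42.7 CPM in siSF3B6, against 24.4, 26.6 and 31.3 CPM in siNC, a log2 fold change of 0.65 (adjusted p = 0.000187, SE 0.097). The groups of EP300 did not overlap, with siNC replicate 3 the closest of the siNC libraries.

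Heat shock elements were looked for in promoters because they are the sites through which HSF1 acts. The 250 bases before each RefSeq transcription start (GRCh38.p14) were searched on both strands for 3 adjoining units, written GAANNTTCNNGAA. It was found for 7 of 79 chaperone genes with a promoter (8.9%) and for 0.56% of 27305 genes. The 30-base windows that hold it are given 5′ to 3′ on the strand of the gene, with the matched bases in capitals; matches that overlap run together in HSPD1 and CHORDC1. A single window is shown per gene; HSP90AB1 and HSPA8 each hold another full match that is not shown, at positions -165 to -153 and -230 to -218 from the start.
HSP90AA1, chr14:102087112-102087141, minus strand: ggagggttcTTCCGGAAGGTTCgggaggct
HSP90AB1, chr6:44247825-44247854, plus strand: agattgTTCTGGAAGCTTCtggattctggc
HSPA8, chr11:123062171-123062200, minus strand: gcgggccccTTCTGGAAGGTTCtaagatag
HSPA6, chr1:161524457-161524486, plus strand: gcggaaaggTTCGCGAAAGTTCgcggcggc
HSPD1, chr2:197500061-197500090, minus strand: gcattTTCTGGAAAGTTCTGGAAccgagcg
DNAJB6, chr7:157336864-157336893, plus strand: aagagccgaGAACCTTCGCGAAggtggggc
CHORDC1, chr11:90223084-90223113, minus strand: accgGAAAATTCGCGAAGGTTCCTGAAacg
Each of these 7 genes passed the filter on reads. None of the 7 was called higher in siSF3B6 and 3 were called lower, against 20.8% and 20.0% of all tested genes, namely, by log2 fold change, HSPD1 (-0.69), DNAJB6 (-0.29) and CHORDC1 (-0.26). The others had log2 fold changes of -0.22 (HSP90AA1), -0.12 (HSPA8), -0.067 (HSP90AB1) and 0.34 (HSPA6) and did not pass. The median of the 7 was -0.22, and it was 0.05 for the 63 tested genes whose promoter lacked the motif, a description with no test. The core of 2 units, GAANNTTC or TTCNNGAA, which every full match contains, was found for 25 of the 79 genes (31.6%) and for 14.0% of all genes; of its 21 tested chaperone genes 3 were higher and 4 lower. Other motifs searched in the same windows were TATAAA (17.7% of chaperone genes, 13.1% of all genes), CCAAT (40.5% and 37.0%), the E2F motif TTTCGCGC or TTTGGCGC (3.8% and 1.2%, in DNAJC6, DNAJC9 and TCP1) and the endoplasmic reticulum stress element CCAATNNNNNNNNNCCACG, which contains CCAAT (1.3% and 0.09%, in HSP90B1). A match is a run of letters and does not show that a factor was bound there.

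**Figure D2:**
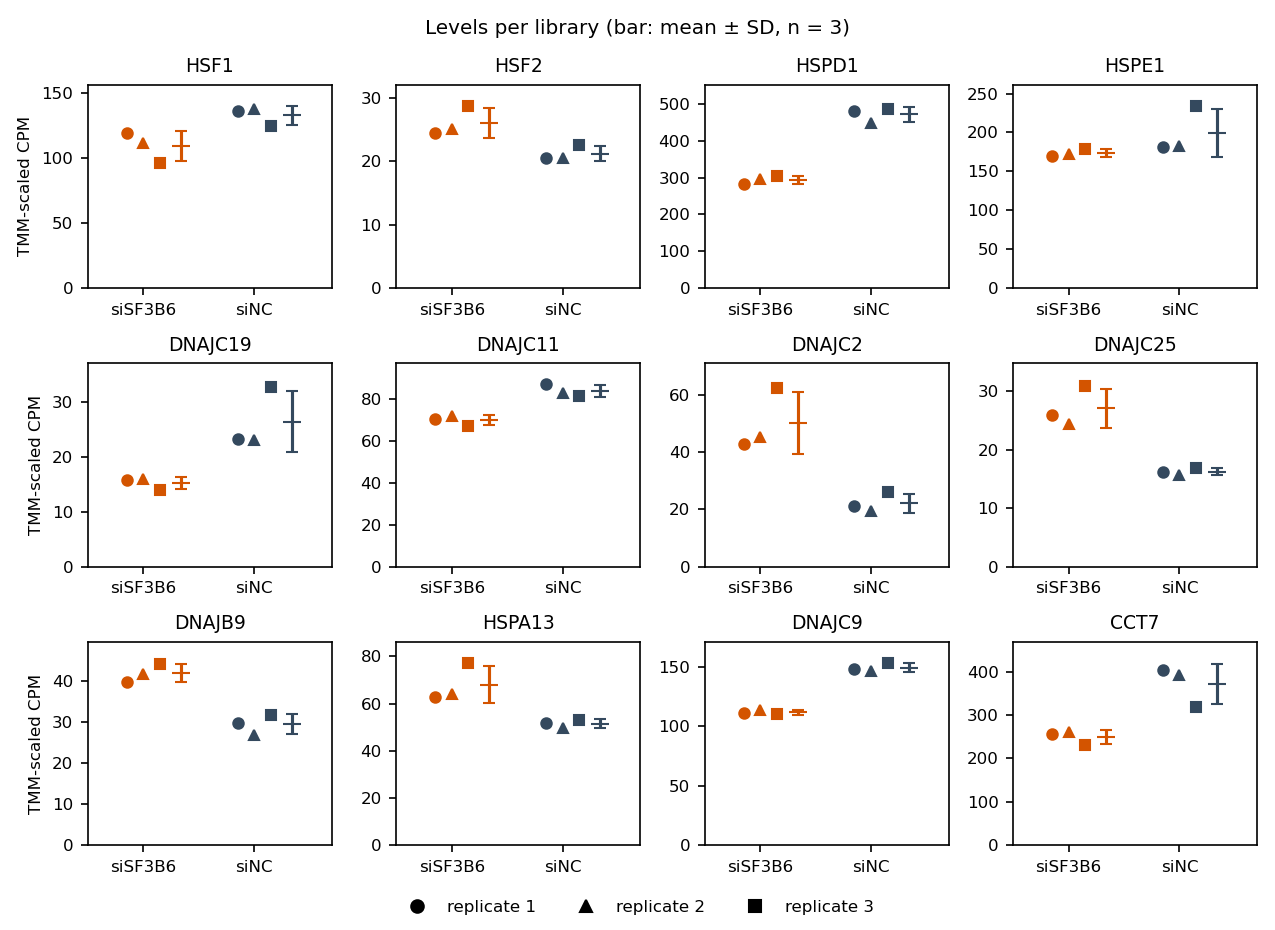
CPM in each library for 12 chaperone genes, with siSF3B6 (orange) left of siNC (dark blue); circles, triangles and squares are replicates 1, 2 and 3, and the bar beside them is the mean ± SD (n = 3). The groups do not overlap in any of the 12 panels; in HSPE1, DNAJC19 and CCT7 siNC replicate 3 stands apart from the other siNC libraries.

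Most heat-inducible chaperones did not pass the test. Of 16 tested genes listed as heat-inducible, 1 was higher and 4 were lower, against 20.8% and 20.0% of all genes, with a median log2 fold change of -0.085. The list was written from general knowledge, and it includes HSPA8, the mainly constitutive HSP70. With the GC and length offset 3 were higher and 3 lower, and with library size as the one scaling 0 were higher and 8 lower; leaving out single libraries gave 1 to 2 higher and 1 to 4 lower. HSPA1A and HSPA1B, the stress-induced HSP70 genes, share 72.6% and 71.4% of their 50-base words with each other, so reads could be split between them, and their sum is the safer measure. That sum was 127, 128 and 105 CPM in siSF3B6, against 116, 105 and 114 CPM in siNC. The groups overlapped (exact two-sided permutation p = 0.4). Taken singly, HSPA1A had 32.4, 34.4 and 24.6 CPM in siSF3B6, against 28.9, 26.6 and 26.8 CPM in siNC, a log2 fold change of 0.15 (adjusted p = 0.305, SE 0.12). HSPA1B had 94.8, 93.7 and 80.5 CPM in siSF3B6, against 87.2, 78.8 and 87.3 CPM in siNC, a log2 fold change of 0.087 (adjusted p = 0.453, SE 0.087). In both genes siSF3B6 replicate 3 was the lowest or next to lowest library, below the other siSF3B6 libraries. With the GC and length offset both passed the test upward, HSPA1A at a log2 fold change of 0.35 (adjusted p = 0.00264) and HSPA1B at 0.27 (adjusted p = 0.00538). Without siSF3B6 replicate 3, HSPA1A passed upward as well (0.28, adjusted p = 0.0149) and HSPA1B did not (0.15, adjusted p = 0.105). With libraries numbered 1 and 2 alone both passed upward, and with library size as the one scaling the sign of HSPA1B turned (-0.017). HSPA6, an HSP70 that is almost silent without stress, had 0.885, 0.920 and 0.458 CPM in siSF3B6, against 0.769, 0.563 and 0.476 CPM in siNC, and it shares 45.5% of its words with the pseudogene HSPA7. HSPA6 was thus under 1 CPM in every library.

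DNAJB1, the main inducible J-domain partner of cytosolic HSP70, had 179.9, 184 and 162 CPM in siSF3B6, against 214, 201 and 194 CPM in siNC, a log2 fold change of -0.21 (adjusted p = 0.0498, SE 0.080). BAG3, which hands HSP70 clients to autophagy, had 194, 192 and 168 CPM in siSF3B6, against 226, 226 and 205 CPM in siNC, or -0.24 (adjusted p = 0.0315, SE 0.083). CHORDC1, an HSP90 co-chaperone, had 29.8, 26.7 and 34.7 CPM in siSF3B6, against 36.6, 34.7 and 38.1 CPM in siNC, or -0.26 (adjusted p = 0.0498, SE 0.10). The groups of these 3 genes did not overlap, but DNAJB1 and CHORDC1 lay at the threshold itself. The call of DNAJB1 was lost without siSF3B6 replicate 1 (adjusted p = 0.0929), siSF3B6 replicate 2 (0.0718), siSF3B6 replicate 3 (0.0686), siNC replicate 1 (0.206) or siNC replicate 2 (0.114). That of CHORDC1 was lost without siSF3B6 replicate 1 (adjusted p = 0.131), siSF3B6 replicate 2 (0.237), siNC replicate 1 (0.116), siNC replicate 2 (0.071) or siNC replicate 3 (0.104), and that of BAG3 without siSF3B6 replicate 2 (adjusted p = 0.0582), siNC replicate 1 (0.12) or siNC replicate 2 (0.121). With the GC and length offset DNAJB1 had a log2 fold change of -0.11 (adjusted p = 0.093), BAG3 -0.087 (adjusted p = 0.158) and CHORDC1 -0.50 (adjusted p = 2.43e-05).

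The remaining listed genes that did not pass lay on both sides of 0. HSP90AA1 (-0.22), HSPB1 (-0.22), HSPE1 (-0.20) and HSPA8 (-0.12) were below 0 and are described with their families or compartment. Of those given here, DNAJA1, HSPH1 and HSPA4L were above 0 and STIP1 below it. DNAJA1, a farnesylated J-domain partner of HSP70, had 406, 404 and 453 CPM in siSF3B6, against 407, 383 and 383 CPM in siNC, a log2 fold change of 0.11. HSPH1, an HSP110 exchange factor, had 120.0, 116 and 147 CPM in siSF3B6, against 127, 120.3 and 123 CPM in siNC, a log2 fold change of 0.050. HSPA4L, a relative of it, had 30.6, 33.4 and 39.96 CPM in siSF3B6, against 29.5, 26.9 and 32.7 CPM in siNC, a log2 fold change of 0.22. In each of these genes siSF3B6 replicate 3 was the highest library. Without siNC replicate 3 HSPA4L passed upward (0.30, adjusted p = 0.045). The sign of HSPH1 turned in 8 of the 21 alternatives and that of DNAJA1 with the offset. STIP1, the adaptor that joins HSP70 to HSP90, had 307, 309 and 291 CPM in siSF3B6, against 293, 293 and 351 CPM in siNC, a log2 fold change of -0.047. Its sign turned without siNC replicate 3, the highest library for this gene.

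None of the 3 HSP90 genes of the set passed the test in the fit of all 6 libraries. TRAP1, the HSP90 of mitochondria, lies outside the set and was lower, as described with the mitochondrial genes. HSP90AB1, the constitutive cytosolic form, was at 523 ± 4.80 FPKM in siSF3B6 and 567 ± 27.8 FPKM in siNC (SD, n = 3 each), the highest level per kilobase of all tested chaperones. It had 1870, 1884 and 1906 CPM in siSF3B6, against 2083, 1976 and 1869 CPM in siNC, a log2 fold change of -0.067 (adjusted p = 0.577, SE 0.089), and its groups overlapped. HSP90AA1, the inducible form, had 1071, 1079 and 1293 CPM in siSF3B6, against 1391, 1305 and 1303 CPM in siNC, or -0.22 (adjusted p = 0.0889, SE 0.097). Its groups did not overlap, with siSF3B6 replicate 3 close to the lower siNC libraries. With the GC and length offset it passed the test downward (-0.30, adjusted p = 0.00442), as it did without siSF3B6 replicate 3 (-0.32, adjusted p = 0.00495). HSP90B1, the form of the endoplasmic reticulum, had 1006, 1020 and 1309 CPM in siSF3B6, against 1081, 991 and 886 CPM in siNC, or 0.17 (adjusted p = 0.247, SE 0.11). There siSF3B6 replicate 3 was the highest library and the groups overlapped.

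Calls among the co-chaperones of HSP90 went both ways. AHSA1, which speeds the ATPase of HSP90, had 192, 199 and 202 CPM in siSF3B6, against 164, 166 and 161 CPM in siNC, a log2 fold change of 0.27 (adjusted p = 0.00843, SE 0.072). All siSF3B6 libraries of AHSA1 lay above all siNC libraries. Its call was lost when scaling used library size alone (0.17, adjusted p = 0.108) and with siNC replicate 3 as the only control. Outside the set, 18 further genes were tested, HSP90 and HSP70 co-chaperones listed together with TRAP1. Of these 2 were higher and 8 lower, TRAP1 among the lower, against 20.8% and 20.0% of all tested genes. Their median log2 fold change was -0.27. With the GC and length offset 1 was higher and 10 were lower. PTGES3, the co-chaperone p23 that closes the HSP90 clamp, had 229, 242 and 249 CPM in siSF3B6, against 513, 483 and 515 CPM in siNC, a log2 fold change of -1.07 (adjusted p = 1.22e-06, SE 0.079). STUB1, the ubiquitin ligase CHIP that marks clients of HSP70 and HSP90 for degradation, had 109, 113 and 91.7 CPM in siSF3B6, against 193, 179.7 and 135 CPM in siNC, or -0.70 (adjusted p = 0.000534, SE 0.12). PTGES3 was less than 50% of siNC in siSF3B6, at 47.6%, in a tight set of libraries, whereas siNC replicate 3 of STUB1 lay nearest the siSF3B6 values. With that library as the only control STUB1 had a log2 fold change of -0.39 (adjusted p = 0.0757) and PTGES3 -1.12 (adjusted p = 0.00016).

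In the HSP70 and HSP110 family 1 of 13 tested genes was higher and 0 were lower, against 20.8% and 20.0% of all tested genes. The median log2 fold change of the family was 0.14. HSPA8, the constitutive cytosolic HSP70 and the most abundant of the family, was at 229 ± 1.51 FPKM in siSF3B6 and 259 ± 5.92 FPKM in siNC (SD, n = 3 each). Its CPM was 1339, 1342 and 1358 in siSF3B6, against 1506, 1462 and 1430 in siNC, a log2 fold change of -0.12 (adjusted p = 0.262, SE 0.084). The groups did not overlap although the test was not passed. By log2 fold change HSPA4, an HSP110 relative, was at -0.11, HSPA9, the mitochondrial form, at -0.046, and HSPA14, which acts on nascent chains at the ribosome, at 0.14; none of these passed, although HSPA4 did without siSF3B6 replicate 3 (-0.21, adjusted p = 0.0249). The weakly expressed HSPA1L, HSPA2 and HSPA12A were each under 1 FPKM in both groups and did not pass. HSPA13, a microsomal member that lacks the usual client-binding part, was the one that passed and is described with the endoplasmic reticulum.

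J-domain proteins held the largest changes of the 78 genes in both directions. DNAJC2, also called MPP11 or zuotin-related factor, forms the ribosome-associated complex with HSPA14. It lies on chromosome 7 at 103312474 to 103344873, minus strand (GRCh38, GENCODE 29). Its level was 42.7, 45.3 and 62.5 CPM in siSF3B6, against 21.2, 19.4 and 25.9 CPM in siNC, a log2 fold change of 1.18 (adjusted p = 3.85e-05, SE 0.14). Every siSF3B6 library exceeded every siNC library by over 1.5-fold, and replicate 3 was the highest in both groups. HSPA14, its partner, had 36.7, 36.7 and 43.6 CPM in siSF3B6, against 36.9, 32.3 and 36.9 CPM in siNC, and its groups overlapped. Another gene entry with the symbol HSPA14 overlaps 17.4% of its exonic bases on the same strand. That entry shares 22.2% of its 50-base words, so reads could be split between the entries. The ratio of DNAJC2 to HSPA14 CPM was 1.17, 1.23 and 1.43 in siSF3B6, against 0.574, 0.601 and 0.702 in siNC (exact two-sided permutation p = 0.1, the smallest possible; the pair was chosen after the values were seen). The range of DNAJC2 over the 21 alternatives was 0.89 to 1.31 on the log2 scale. DNAJC21 and DNAJC24, which act in ribosome assembly and in the modification of elongation factor 2, had log2 fold changes of 0.081 and -0.12 and did not pass.

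Of the DNAJB family, 5 of 9 tested genes were higher and 3 lower, against 20.8% and 20.0% of all tested genes. The groups of all 9 did not overlap, as was so for 52.1% of all tested genes. DNAJB4, a close relative of DNAJB1, had 24.3, 24.3 and 32.8 CPM in siSF3B6, against 14.4, 15.1 and 17.9 CPM in siNC, a log2 fold change of 0.78 (adjusted p = 0.000353, SE 0.13). DNAJB2, which binds ubiquitin and steers clients to the proteasome, had 50.95, 49.98 and 44.9 CPM in siSF3B6, against 37.1, 36.8 and 29.7 CPM in siNC, or 0.49 (adjusted p = 0.00156, SE 0.10). In both genes all siSF3B6 libraries were above all siNC libraries. DNAJB5, a member of the same class, had 6.64, 5.90 and 5.30 CPM in siSF3B6, against 8.33, 10.1 and 12.2 CPM in siNC, or -0.78 (adjusted p = 0.000965, SE 0.15), at a low level in both groups. DNAJB6, a suppressor of aggregation of polyglutamine proteins, had 279, 279 and 279.9 CPM in siSF3B6, against 363, 338 and 323 CPM in siNC, or -0.29 (adjusted p = 0.00893, SE 0.078). Its siSF3B6 libraries were nearly equal. The call of DNAJB6 was lost without siNC replicate 1 (adjusted p = 0.0663). DNAJB4 and DNAJB6 lost theirs with siNC replicate 3 as the only control (adjusted p = 0.0503 and 0.194), and with the offset the family had 3 higher and 2 lower.

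In the DNAJA family 1 of 3 tested genes was higher and 0 were lower, against 20.8% and 20.0% of all tested genes. DNAJA2, a general cytosolic partner of HSP70, had 105, 106 and 123 CPM in siSF3B6, against 82.3, 81.8 and 91.9 CPM in siNC, a log2 fold change of 0.38 (adjusted p = 0.00346, SE 0.088), with no overlap between the groups. DNAJA3, its mitochondrial relative, had a log2 fold change of 0.051 and did not pass.

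Of 25 tested DNAJC genes, 6 were higher and 5 lower, 24.0% and 20.0%, against 20.8% and 20.0% of all tested genes. DNAJC9, a chaperone of histones H3 and H4, had 111, 114 and 110.4 CPM in siSF3B6, against 148, 147 and 154 CPM in siNC, a log2 fold change of -0.42 (adjusted p = 0.000498, SE 0.072). Its libraries lay close together within each group; 28.6% of its exonic bases overlap genes on the opposite strand. DNAJC7, which bridges HSP70 and HSP90, had 97.7, 102 and 114 CPM in siSF3B6, against 126, 122 and 124 CPM in siNC, or -0.24 (adjusted p = 0.0269, SE 0.080). The groups of DNAJC7 did not overlap, but its call was lost without siSF3B6 replicate 1 (adjusted p = 0.14), siSF3B6 replicate 2 (0.105), siNC replicate 1 (0.097) or siNC replicate 2 (0.0691). DNAJC6, auxilin, which starts the uncoating of clathrin vesicles, had 16.9, 15.6 and 19.03 CPM in siSF3B6, against 12.9, 11.5 and 14.4 CPM in siNC, or 0.41 (adjusted p = 0.00968, SE 0.11), and did not keep its call without siNC replicate 2 (adjusted p = 0.059). DNAJC4 had 18.2, 17.5 and 13.2 CPM in siSF3B6, against 11.9, 12.6 and 14.4 CPM in siNC, or 0.33 (adjusted p = 0.0483, SE 0.13). Its groups overlapped through siSF3B6 replicate 3 and siNC replicate 3, and the call was lost in 14 of the 21 alternatives, among them without siSF3B6 replicate 1 (adjusted p = 0.194), siSF3B6 replicate 2 (0.143), siNC replicate 1 (0.17) or siNC replicate 2 (0.134).

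A pair of DNAJC genes of low level was also called. DNAJC22 was at 0.507 ± 0.045 FPKM in siSF3B6 and 1.08 ± 0.220 FPKM in siNC (SD, n = 3 each), a log2 fold change of -1.02 (adjusted p = 0.000319, SE 0.17). DNAJC27, which joins a small GTPase domain to a J domain, was at 0.627 ± 0.133 FPKM in siSF3B6 and 0.433 ± 0.081 FPKM in siNC, or 0.57 (adjusted p = 0.025, SE 0.19). The groups of both did not overlap, and the call of DNAJC27 was lost without siSF3B6 replicate 3 (adjusted p = 0.118) or siNC replicate 2 (0.112).

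DNAJC8 and DNAJC17 are J-domain proteins found with spliceosomes, the machine that SF3B6 belongs to. Neither passed the test. DNAJC8, the most abundant DNAJC gene at 40.7 ± 2.02 FPKM in siSF3B6 and 46.7 ± 1.20 FPKM in siNC (SD, n = 3 each), had 138, 139 and 151 CPM in siSF3B6, against 158, 155 and 160.1 CPM in siNC, a log2 fold change of -0.15 (adjusted p = 0.129, SE 0.075). Its groups did not overlap, and with the offset it passed downward (-0.22, adjusted p = 0.00393), and also without siSF3B6 replicate 3 (-0.20, adjusted p = 0.0245). DNAJC17 had 11.4, 11.7 and 9.71 CPM in siSF3B6, against 11.1, 12.4 and 12.8 CPM in siNC, or -0.14 (adjusted p = 0.322, SE 0.11), and its groups overlapped.

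Genes of the endoplasmic reticulum were called upward and not downward in the fit of all 6 libraries. Of 13 tested members, HSPA5 not among them, 5 were higher and 0 lower, with a median log2 fold change of 0.12. Of all tested genes 20.8% were higher and 20.0% lower. DNAJB9, or ERdj4, a target of the unfolded protein response that serves degradation of misfolded proteins, had 39.8, 41.5 and 44.1 CPM in siSF3B6, against 29.7, 26.8 and 31.6 CPM in siNC, a log2 fold change of 0.51 (adjusted p = 0.000611, SE 0.090). HSPA13 had 62.6, 64.2 and 76.97 CPM in siSF3B6, against 51.7, 49.4 and 53.2 CPM in siNC, or 0.40 (adjusted p = 0.00346, SE 0.092). DNAJC25, a J-domain protein of the membrane of this organelle, had 25.8, 24.4 and 30.8 CPM in siSF3B6, against 16.2, 15.6 and 16.8 CPM in siNC, or 0.74 (adjusted p = 0.000108, SE 0.10). In these 3 genes no groups overlapped, and replicate 3 was the highest siSF3B6 library. DNAJC25 shares 13.8% of its exonic bases with the read-through gene DNAJC25-GNG10.

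DNAJB11, or ERdj3, a secreted and luminal partner of HSP70, had 110.5, 106 and 122 CPM in siSF3B6, against 95.8, 90.6 and 94.6 CPM in siNC, a log2 fold change of 0.27 (adjusted p = 0.015, SE 0.080). DNAJB14, which acts in degradation from the membrane, had 39.5, 36.8 and 48.2 CPM in siSF3B6, against 34.3, 31.01 and 36.6 CPM in siNC, or 0.29 (adjusted p = 0.0466, SE 0.11). The call of DNAJB11 was lost without siNC replicate 2 (adjusted p = 0.0796) and that of DNAJB14 without siSF3B6 replicate 1 (adjusted p = 0.0677), siSF3B6 replicate 3 (0.173), siNC replicate 1 (0.104) or siNC replicate 2 (0.191). Both were near 0 with the GC and length offset, at 0.062 (adjusted p = 0.349) and 0.044 (adjusted p = 0.543). The other 8 members did not pass. They included, by log2 fold change, DNAJC3, an inhibitor of the kinase PERK (0.052), DNAJC10, a reductase (0.024), DNAJB12 (-0.10) and DNAJC16 (-0.23). With the offset 4 members were higher and 2 lower, and with siNC replicate 3 as the only control 1 was higher and 0 lower. Without siNC replicate 2 there were 3 higher. Among 10 other folding genes of this compartment, 1 was higher (PDIA3, 0.34) and 3 were lower, against 20.8% and 20.0% of all tested genes. The lower ones were SERPINH1 (-0.54), HYOU1 (-0.39) and SDF2L1 (-0.31). HYOU1 and SDF2L1, like DNAJB9 and DNAJB11, are known targets of the unfolded protein response. With the offset SDF2L1 was near 0 (-0.011, adjusted p = 0.93) and HYOU1 was still lower (-0.29, adjusted p = 0.00417), while with siNC replicate 3 as the only control neither passed (adjusted p = 0.228 for SDF2L1 and 0.402 for HYOU1). Of these 10 genes 4 were higher and 3 lower with the offset.

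**Figure D3:**
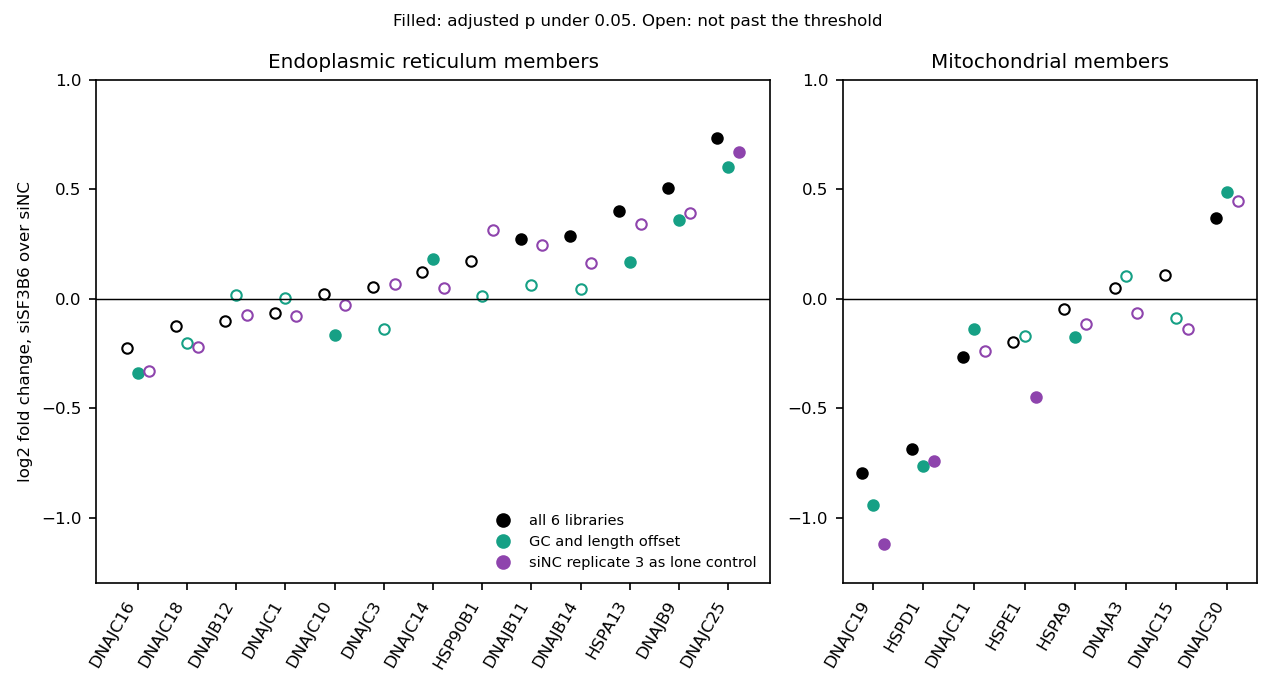
Log2 fold change (siSF3B6 over siNC, vertical axis) of the 13 endoplasmic reticulum genes (left) and 8 mitochondrial genes (right) in the fit of all 6 libraries (black), with the GC and length offset (green) and with siNC replicate 3 as the only control (purple); filled points passed an adjusted p of 0.05. DNAJC25 at one side and DNAJC19 and HSPD1 at the other are filled in all 3 fits, while DNAJB11 and DNAJB14 drop close to 0 with the offset.

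Among mitochondrial chaperones 3 of 8 were lower and 1 higher, against 20.0% and 20.8% of all tested genes, with a median log2 fold change of -0.12. HSPD1, the barrel subunit HSP60, had 281, 296 and 303 CPM in siSF3B6, against 480.0, 448 and 486 CPM in siNC, a log2 fold change of -0.69 (adjusted p = 2.8e-05, SE 0.079). All siSF3B6 libraries lay far below all siNC libraries, siNC replicate 3 included, and the value ranged only from -0.79 to -0.66 over the 21 alternatives. HSPE1, the lid subunit HSP10, had 169, 173 and 179 CPM in siSF3B6, against 181, 183 and 235 CPM in siNC, or -0.20 (adjusted p = 0.123, SE 0.099), and did not pass. The annotated span of HSPE1 lies wholly inside that of HSPD1 on the opposite strand of chromosome 2, with HSPD1 at 197486581 to 197516737 on the minus strand and HSPE1 at 197499994 to 197503457 on the plus strand (GRCh38, GENCODE 29). These spans cover all transcripts of a gene. The HSPD1 window with the heat shock element, taken upstream of a RefSeq start, is at 197500061 to 197500090, inside the span of HSPE1. The ratio of HSPD1 to HSPE1 CPM was 1.66, 1.71 and 1.69 in siSF3B6, against 2.65, 2.46 and 2.07 in siNC (exact two-sided permutation p = 0.1, the smallest possible; the pair was chosen after the values were seen). HSPD1 shares 24.8% of its 50-base words with other loci, mainly the pseudogene HSPD1P1, and HSPE1 27.2%, mainly the read-through HSPE1-MOB4.

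DNAJC19, a J-domain subunit of the inner membrane import motor, had 15.7, 15.9 and 13.9 CPM in siSF3B6, against 23.1, 23.03 and 32.7 CPM in siNC, a log2 fold change of -0.79 (adjusted p = 0.000381, SE 0.13). The siNC libraries of DNAJC19 were wide, with replicate 3 the highest, but none overlapped the siSF3B6 libraries. DNAJC11, linked to the cristae-organising complex, had 70.7, 71.96 and 67.4 CPM in siSF3B6, against 87.5, 83.1 and 81.8 CPM in siNC, or -0.27 (adjusted p = 0.0133, SE 0.076). DNAJC11 shares 27.9% of its exonic bases with THAP3 on the opposite strand, and its call was lost without siNC replicate 1 (adjusted p = 0.0785). DNAJC30, which associates with the ATP synthase, had 27.98, 26.4 and 24.4 CPM in siSF3B6, against 21.1, 20.9 and 19.1 CPM in siNC, or 0.37 (adjusted p = 0.00546, SE 0.091). It was the one mitochondrial member that passed upward, with no overlap between groups, and it lost its call with siNC replicate 3 as the only control (adjusted p = 0.0592). DNAJC15, DNAJA3 and HSPA9 did not pass, at log2 fold changes of 0.11, 0.051 and -0.046.

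With siNC replicate 3 as the only control the lower mitochondrial members were, by log2 fold change, DNAJC19 (-1.12), HSPD1 (-0.74) and HSPE1 (-0.45, adjusted p = 0.0195). The mitochondrial list thus again held 3 lower genes, with HSPE1 in place of DNAJC11. Outside the set, TRAP1, the HSP90 of mitochondria, had 46.3, 47.2 and 41.9 CPM in siSF3B6, against 87.4, 87.4 and 72.1 CPM in siNC, a log2 fold change of -0.87 (adjusted p = 1.91e-05, SE 0.094), and it passed as well with that single control (-0.69, adjusted p = 0.00476). Of 7 further genes of mitochondrial protein quality control, 2 were higher and 4 lower, against 20.8% and 20.0% of all tested genes. CLPX, the unfoldase of the ClpXP protease, had 46.4, 50.5 and 55.4 CPM in siSF3B6, against 36.8, 35.2 and 33.997 CPM in siNC, or 0.52 (adjusted p = 0.000455, SE 0.088). GRPEL2, a nucleotide exchange factor of mitochondrial HSP70, had 23.6, 24.9 and 27.5 CPM in siSF3B6, against 18.7, 19.4 and 21.3 CPM in siNC, or 0.36 (adjusted p = 0.00822, SE 0.094), lost without siNC replicate 1 (adjusted p = 0.0504). The 4 lower genes were CLPB (-0.68), the protease LONP1 (-0.57), HSCB (-0.41) and CLPP (-0.29, adjusted p = 0.0468), the protease subunit of ClpXP. The call of CLPP was lost with the offset (-0.005, adjusted p = 0.969) and with siNC replicate 3 as the only control (adjusted p = 0.0855). With the offset 1 of these 7 genes was higher and 3 were lower. Mitochondrially encoded reads, whose share differs between the groups as given above, enter the library totals; with those genes left out the mitochondrial list again had 3 lower calls.

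In the cytosolic chaperonin 1 subunit passed the test. TRiC, the ring that folds actin and tubulin, has TCP1 and the CCT proteins as its subunits. Of its 9 tested genes 0 were higher and 1 was lower, against 20.8% and 20.0% of all tested genes. The median log2 fold change was -0.17. CCT7, the eta subunit, had 257, 260.3 and 230.0 CPM in siSF3B6, against 403, 391 and 319 CPM in siNC, a log2 fold change of -0.58 (adjusted p = 0.000458, SE 0.098). No siSF3B6 library reached the lowest siNC library, which was replicate 3. CCT3, the most abundant subunit at 97.2 ± 2.67 FPKM in siSF3B6 and 101 ± 1.43 FPKM in siNC (SD, n = 3 each), had 456, 465 and 442 CPM in siSF3B6, against 460.0, 455 and 458 CPM in siNC, a log2 fold change of -0.009. CCT8, TCP1 and CCT2 had log2 fold changes of -0.20, -0.19 and -0.17, at adjusted p of 0.0548, 0.0598 and 0.0852, with groups that did not overlap; without siSF3B6 replicate 3 all 3 passed, at -0.26, -0.23 and -0.17 (adjusted p = 0.0103, 0.0176 and 0.0448). CCT5 had a log2 fold change of 0.18 (adjusted p = 0.0787), and 30.1% of its exonic bases overlap a gene on the opposite strand.

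The CPM of CCT7 over the mean of the 7 other broadly expressed TRiC genes was 0.758, 0.763 and 0.651 in siSF3B6, against 1.12, 1.13 and 0.910 in siNC (exact two-sided permutation p = 0.1, the smallest possible; chosen after the values were seen). With the offset 5 of the 9 genes were lower, and with siNC replicate 3 as the only control 0 were called, where CCT7 had a log2 fold change of -0.37 (adjusted p = 0.0536). Of 11 genes of prefoldin, which delivers actin and tubulin to TRiC, and of the R2TP assembly complex, 0 were higher and 3 lower. Of all tested genes 20.8% were higher and 20.0% lower. The lower ones of the 11 were RUVBL2 (-0.56), RUVBL1 (-0.52) and PIH1D1 (-0.49). None of the prefoldin genes among the 11 passed. With the offset the 11 genes had 1 higher and 6 lower, and PFDN1, PFDN4 and VBP1 passed downward (adjusted p = 0.0491, 0.00474 and 0.000838) and PFDN5 upward (adjusted p = 0.0396).

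**Figure D4:**
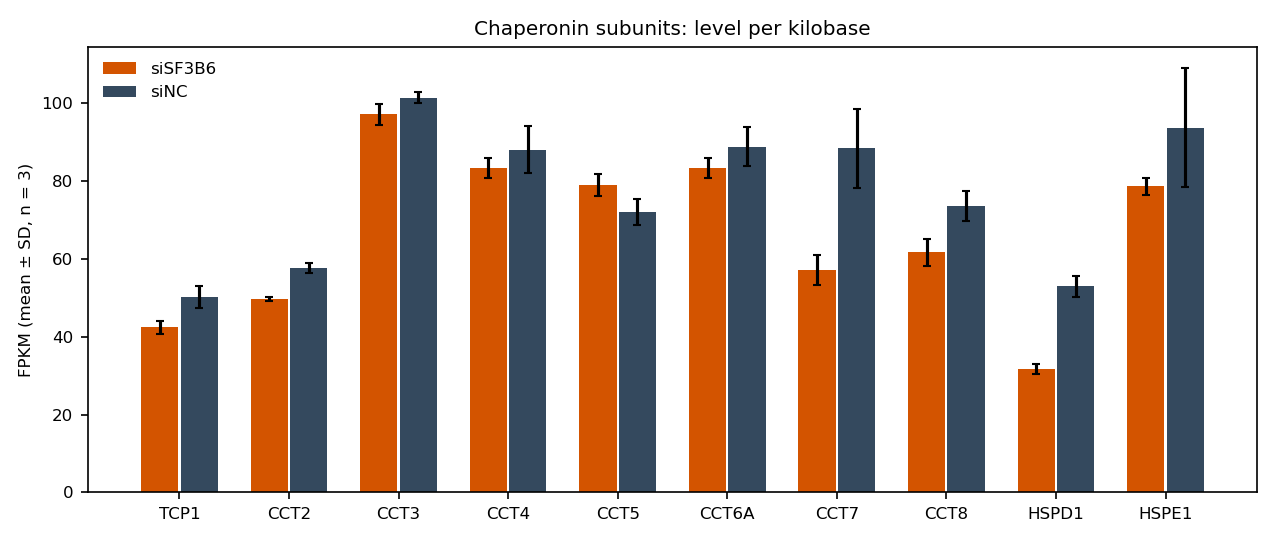
Level per kilobase (FPKM, vertical axis, from 0) of 8 TRiC subunits and of HSPD1 and HSPE1; bars are means, siSF3B6 (orange) left of siNC (dark blue), and error bars are SD (n = 3). CCT7 and HSPD1 show the widest gaps among the 10 genes plotted, CCT7 at 57.2 FPKM in siSF3B6 against 88.4 FPKM in siNC and HSPD1 at 31.7 FPKM in siSF3B6 against 52.9 FPKM in siNC; the weakly expressed CCT6B (0.197 FPKM in siSF3B6 against 0.280 FPKM in siNC) is left out.

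BAG proteins, the nucleotide exchange factors of HSP70, had 1 of 6 genes higher and 2 lower, against 20.8% and 20.0% of all tested genes. BAG1, which links HSP70 to the proteasome, had 86.8, 86.3 and 80.6 CPM in siSF3B6, against 119, 116 and 103 CPM in siNC, a log2 fold change of -0.42 (adjusted p = 0.00124, SE 0.081). BAG2, which holds back the ubiquitin ligase CHIP, had 88.5, 83.5 and 101 CPM in siSF3B6, against 64.8, 65.4 and 77.8 CPM in siNC, or 0.39 (adjusted p = 0.00565, SE 0.097). The groups of both did not overlap. For BAG2 44.2% of the exonic bases overlap genes on the opposite strand, RAB23 and ZNF451-AS1, and its log2 fold change was 0.17 with the offset (adjusted p = 0.0287). With siNC replicate 3 as the only control neither passed. BAG4, BAG5 and BAG6 did not pass, at log2 fold changes of 0.19, -0.040 and -0.11.

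Of the small heat shock proteins 3 of 8 were tested and 1 was higher, where 20.8% of all tested genes were higher. HSPB1, or HSP27, the abundant one at 123 ± 17.6 FPKM in siSF3B6 and 148 ± 14.2 FPKM in siNC (SD, n = 3 each), had 257, 265 and 202 CPM in siSF3B6, against 260.1, 275 and 308 CPM in siNC, a log2 fold change of -0.22 (adjusted p = 0.109, SE 0.10). Its groups overlapped through siSF3B6 replicate 2, and its sign turned with the offset (0.066). HSPB8, the partner of BAG3, was at 5.63 ± 0.306 FPKM in siSF3B6 and 4.88 ± 0.462 FPKM in siNC (SD, n = 3 each), or 0.26 (adjusted p = 0.0405, SE 0.093), and its libraries did not overlap between groups in CPM. Its call was lost without siSF3B6 replicate 1 (adjusted p = 0.106), siSF3B6 replicate 2 (0.142), siNC replicate 1 (0.103) or siNC replicate 2 (0.198). HSPB11, an intraflagellar transport protein in spite of its symbol, had a log2 fold change of -0.20 and did not pass. BAG3 was lower and HSPB8 higher in siSF3B6, each by less than 1.5-fold.

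The 11 genes that were not tested had 1 to 34 reads over all 6 libraries. They were HSPB2, HSPB3, HSPB6, HSPB7 and HSPB9, known mostly from muscle or testis, with HSPA12B, DNAJA4, DNAJB7, DNAJB8, DNAJB13 and DNAJC12. They were left out by the filter on low counts, and without that filter 0 of the 11 passed in edgeR or in limma on log2(FPKM + 1), with 1 of 11, HSPA12B, at an unadjusted p under 0.05 in each. DESeq2 gave none of the 11 an adjusted p and 0 of 11 an unadjusted p under 0.05. HSPA12B had groups that did not overlap, at 0.034, 0.054 and 0.033 CPM in siSF3B6, against 0.256, 0.066 and 0.238 CPM in siNC, with an adjusted p of 0.119 in edgeR without the filter; it had 22 reads in all.

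GC content moved with the direction of change. Among the 40 tested genes with a longest transcript under 45% GC, 12 were higher and 3 lower, with a median log2 fold change of 0.11. Of the 22 genes from 45% to 55%, 3 were higher and 6 lower (median -0.12), and of the 16 genes at or above 55%, 2 were higher and 5 lower (median -0.11). Across the 78 genes the correlation of log2 fold change with GC was -0.21 (Pearson) and -0.26 (Spearman), and across 16675 tested genes it was -0.31 and -0.34. With the offset the values over the 78 genes were 0.175 and 0.173, with libraries numbered 1 and 2 alone -0.095 and -0.12, and with siNC replicate 3 as the only control -0.12 and -0.185. Genes are not independent replicates, all share the same 6 libraries, and these values are a description. With the offset the 3 medians were -0.068, -0.13 and 0.065, and the split of calls over the set was 16 higher and 23 lower, where 23.7% and 22.7% of all genes were called. Called genes that the offset left unchanged in call included HSPD1 (-0.76), DNAJC19 (-0.94), DNAJC2 (1.06) and DNAJB2 (0.65).

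**Figure D5:**
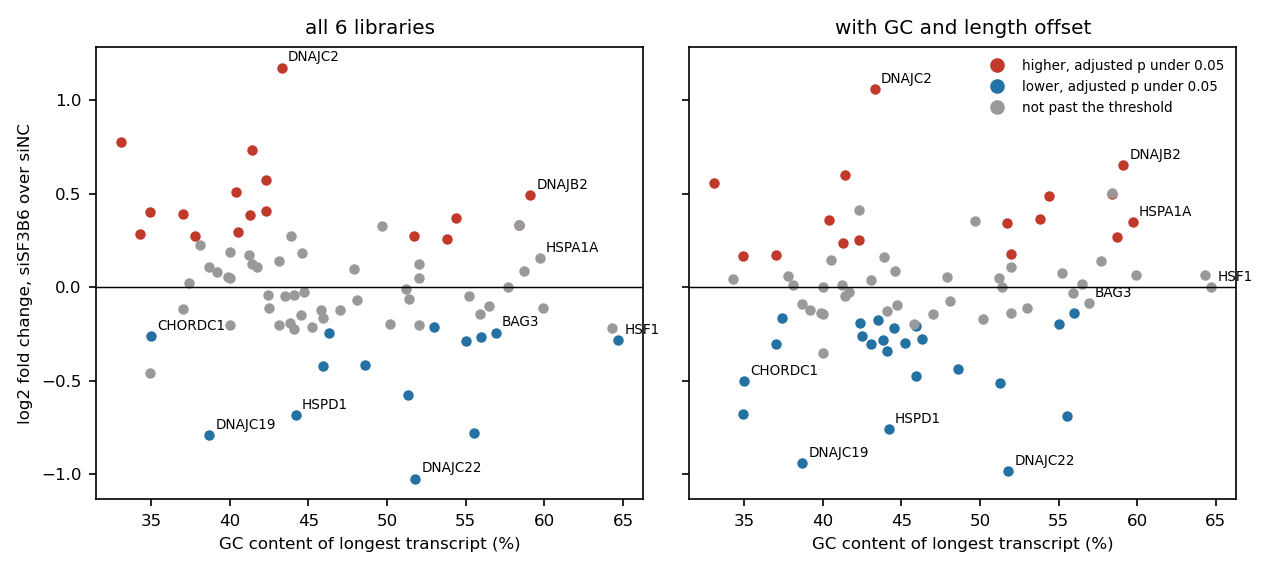
Log2 fold change (siSF3B6 over siNC, vertical axis) against GC content of the longest transcript (percent, horizontal axis) for the 78 tested genes, in the fit of all 6 libraries (left) and with the GC and length offset (right); red and blue points passed the test upward and downward, grey points did not. On the left most red points lie under 45% GC and HSF1, at 64.7%, is blue; on the right HSF1 lies at 0.001 and is grey.

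Short matches to the siRNA were counted because a duplex can lower other transcripts through bases 2 to 8 of its antisense strand, the seed. The antisense strands, given 5′ to 3′ without overhangs and with the seed in capitals, follow.
siSF3B6: aAGCUUCAacuguuccucc
siNC: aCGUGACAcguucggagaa
A site for the siSF3B6 seed, TGAAGCT, lay in the 3′ UTR of 12 tested chaperone genes. Of these 3 were higher (DNAJA2, DNAJB14 and DNAJC30) and 4 lower (DNAJB1, DNAJB5, DNAJB6 and CHORDC1), with a median log2 fold change of -0.085. Of the 66 without a site 14 were higher and 10 lower, with a median of 0.025. HSPD1, DNAJC19, CCT7 and DNAJC9 have no such site in the annotated 3′ UTR. Over all tested genes with a 3′ UTR, 434 of 1946 with a site were higher and 505 lower, and 2650 and 2495 of 11248 without one. The siNC seed had a site in 2 tested chaperone genes, DNAJC18 and DNAJC6, of which DNAJC6 was called higher. Over all tested genes with a 3′ UTR, 120 of 400 with a siNC site were higher and 78 lower, and 2964 and 2922 of 12794 without one.

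The 52 tested genes outside the set were folding and co-chaperone genes and the 6 genes that bear on HSF activity. By count they were lower more often than higher: 7 were higher and 18 lower, with a median log2 fold change of -0.098. Of all tested genes 20.8% were higher and 20.0% lower. The 6 genes that bear on HSF activity gave 2 of the 7 higher calls and 0 of the 18 lower. With the offset 9 were higher and 22 lower, where 23.7% and 22.7% of all genes were. The difference between that list and the 78 chaperone genes, 17 higher and 14 lower, was not tested.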

How the data were processed

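RNA-seq of polyadenylated RNA was made with a strand-specific kit that removes the dUTP-marked strand, per the labels' protocols. The authors deposited read counts per gene as whole numbers without normalization, and FPKM values. The submitters' processing notes name HISAT2, DESeq2 and hg38. How reads were assigned to genes, with or without strand, and by which annotation is not given here, so that overlapping genes may share reads. The count table lists genes with at least 1 read.

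Groups and replicate numbers came from the sample titles. Every title names MDA-MB-231, while the labels' cell line field counts upward from that name, 1 number per sample; the titles were followed. Counts were filtered with filterByExpr, scaled with TMM and tested with edgeR 4.0.16 (quasi-likelihood, no replicate block; R 4.3.3), with Benjamini-Hochberg adjustment over all 16869 genes tested and 0.05 as the threshold. Each standard error is the size of the log2 fold change over the square root of its F statistic. FPKM served for levels between genes. The test was run on simulated counts, drawn independently for each library with the fitted dispersions. No outlying library was simulated, so that run does not cover the uneven siNC libraries. GENCODE 29 (GRCh38, not stated to be the authors' annotation) gave positions, overlaps, GC content and 3′ UTRs, and RefSeq GRCh38.p14 gave promoters. Shared sequence was counted in words of 50 bases.

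The genes and lists were chosen with earlier results of these data known. Values in every library were given for HSF1, HSF2, the most abundant member of each family, the 12 largest called changes in each direction of at least 5 mean CPM, heat-inducible genes and J-domain proteins of the spliceosome (41 genes in all). The same values were also given for other members that were called or that a ratio uses. Of the genes outside the set, the 3 largest called changes in each direction were described. There were 21 alternatives. In place of edgeR, limma-voom (version 3.58.1) and DESeq2 (version 1.42.0) were used. Scaling was changed to RLE factors, to library size only, or to counts without mitochondrially encoded genes. The filter was dropped, or set to 1 CPM in at least 3 libraries. Terms were added for the replicate number (a block), for GC and length (an offset by lowess, span 0.3), or for both. Each library was left out in turn, the libraries numbered 3 were left out together, and siNC replicate 3 was used as the only control. The FPKM values were tested with limma after adding 1 or 0.1 and taking log2, with a minimum mean of 0.5 FPKM, and after adding 1 without that minimum. Counts for the compartment lists under these alternatives were added after the data were seen.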

Additional observations from a re-analysis of the deposited data

How the results depend on the processing

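Of 858 values of the 41 genes under the alternatives, 724 kept direction and side of the threshold, 79 lost the call, 31 gained one and 24 changed sign. SF3B6 stayed lower in every alternative, between -2.04 and -1.86 on leaving out single libraries. Leaving out single libraries gave 10 to 20 chaperone genes higher and 7 to 19 lower, medians of -0.064 to -0.001, 3 to 5 endoplasmic reticulum genes higher and 2 to 3 mitochondrial genes lower. Library size alone gave 10 higher and 24 lower and a median of -0.12, with 3 endoplasmic reticulum genes higher; it moved the median of all genes by -0.10. With the GC and length offset 23 were lower, and 24 with the replicate block added (5 mitochondrial genes lower). The libraries numbered 1 and 2, which resemble each other within a group, gave 24 higher and 26 lower. With siNC replicate 3 as the only control 3 were higher and 6 lower, and 1 endoplasmic reticulum gene was higher. The median was -0.076 with filtered log2(FPKM + 1), -0.077 with log2(FPKM + 0.1) (11 higher, 3 endoplasmic reticulum genes higher) and -0.069 with unfiltered log2(FPKM + 1) (7 higher, 2 endoplasmic reticulum genes higher). The cause of these shifts was not tested.

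Signs changed under library size alone for HSPA1B (-0.017) and HSPH1 (-0.052). Under the offset they changed for CCT3 (0.050), DNAJA1 (-0.024), HSF1 (0.001), HSPB1 (0.066), HSPH1 (-0.143) and STIP1 (0.078), and with the block added for CCT3 (0.050), DNAJA1 (-0.022), HSF1 (0.001), HSPB1 (0.077), HSPH1 (-0.143) and STIP1 (0.086). They changed without siSF3B6 replicate 3 for CCT3 (0.005) and HSPH1 (-0.069), and without siNC replicate 3 for STIP1 (0.049). Over single libraries left out CCT3 ranged from -0.023 to 0.005, HSPH1 from -0.069 to 0.117 and STIP1 from -0.094 to 0.049. Libraries numbered 1 and 2 changed CCT3 (0.013), HSPH1 (-0.066) and STIP1 (0.075), the only control HSP90AB1 (0.001), and the 3 FPKM settings HSPH1 (-0.008, -0.009 and -0.008). Of these genes HSF1 had been called.

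With the replicate number as a block 18 genes were higher and 19 lower. Same-numbered libraries correlated at 0.033, 0.102 and 0.123 in their deviations from the group means, too low to treat the numbers as pairs, although every library correlated best with its own number.

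Genes under 5 CPM have few reads behind them, and FPKM rounded to 2 decimals limits the lowest levels.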
